A study of Mus musculus with 8 samples.

Results

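Homeostatic1 microglia are one of 5 groups into which the authors clustered the microglia of *Rag1*-/- and wild-type mouse brains. The cells described here are all those that the authors' cell annotation names Homeostatic1 and assigns to one of the 4 *Rag1*-/- libraries. They numbered 3244 of the 7430 *Rag1*-/- microglia in that annotation, and all of them were among the 20905 *Rag1*-/- cells of all types with deposited counts. All mice were 24 months old and carried a *Rag1* deletion, given in the labels as strain NOD.129S7(B6)-Rag-1tm1Mom/J. No wild-type library is compared here. *Rag1* is needed to assemble the antigen receptors of lymphocytes, so these animals lack mature T and B cells. Gray matter was taken from the frontal cortex (1 library). White matter was pooled from the corpus callosum, the medial lemniscus and the optic tract (3 libraries). Tissue was dissociated with papain in the presence of actinomycin D, which blocks transcription after the brain is removed, and living cells were sorted without selection for microglia. The labels put the gray matter library and white matter library 1 in batch 1, and white matter libraries 2 and 3 in batch 2. The batches were also processed with different versions of Cell Ranger.

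Microglia are the resident macrophages of the brain parenchyma. In the undisturbed brain they keep a characteristic profile, often called homeostatic, which depends on transforming growth factor-β (TGF-β) and on transcription factors such as PU.1 and Sall1. Its best known members sense nucleotides released by neighboring cells through P2ry12 and neuronal fractalkine through Cx3cr1. In aging, demyelination and neurodegeneration a part of the cells lowers these genes and raises genes of lipid handling and phagocytosis, among them *Apoe*, *Lpl* and *Cst7*. White matter-associated microglia (WAM) and interferon (IFN)-responsive microglia (IRM) are names for such states and, with Homeostatic2 and Activated, are the other clusters here.

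The windows around the transcription starts of 2 of the 3 marker genes are shown because PU.1, the factor that specifies macrophages and microglia, recognizes a short sequence with the core GGAAGT. Both come from RefSeq on build GRCm38.p6, the patch release of the mm10 genome named in the labels. Each runs from 250 bases before to 50 bases after the start, on the strand of the gene, with the core in capitals.
P2ry12 (chr3:59262936-59263235, minus strand): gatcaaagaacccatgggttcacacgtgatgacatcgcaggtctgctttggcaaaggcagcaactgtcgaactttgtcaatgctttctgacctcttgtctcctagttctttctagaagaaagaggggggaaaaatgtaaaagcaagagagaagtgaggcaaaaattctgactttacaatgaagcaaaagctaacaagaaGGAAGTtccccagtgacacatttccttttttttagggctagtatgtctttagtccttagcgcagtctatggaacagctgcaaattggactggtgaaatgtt
Cx3cr1 (chr9:120068247-120068546, minus strand): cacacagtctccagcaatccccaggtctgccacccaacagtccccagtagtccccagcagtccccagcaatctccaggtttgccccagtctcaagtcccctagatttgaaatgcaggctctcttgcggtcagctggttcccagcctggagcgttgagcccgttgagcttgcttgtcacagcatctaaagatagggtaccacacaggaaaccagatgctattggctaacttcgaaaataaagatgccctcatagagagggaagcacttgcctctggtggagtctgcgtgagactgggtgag
The *P2ry12* window held the core once, beginning at position -51 from the start, and the *Cx3cr1* window did not hold it on either strand. Neither window held the longer motif GAGGAAGT. For comparison, 23.8% of all 32851 windows held the core and 1052 of them the longer motif, of which the core is a part, on either strand. A match describes the letters of the window and no binding was measured.

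Homeostatic1 cells were the bulk of gray matter microglia and a minority of white matter microglia. In the gray matter library they were 1634 of 1732 microglia, or 94.3% (exact Clopper-Pearson 95% interval 93.1% to 95.4%). In white matter libraries 1, 2 and 3 they were 785 of 3617 (21.7%, 20.4% to 23.1%), 248 of 712 (34.8%, 31.3% to 38.5%) and 577 of 1369 (42.1%, 39.5% to 44.8%). The white matter mean was 32.9% ± 10.4 (SD, n = 3 libraries), and the intervals cover counting error only. No test was run, since an exact permutation of 1 library against 3 cannot give a p below 0.25. Homeostatic2 made up 1.67% of gray matter microglia (29 cells) against 52.1%, 31.7% and 33.5% in the white matter libraries (1884, 226 and 459 cells). The clusters were built from expression in these same cells, and which genes entered the clustering was not examined here. Within white matter the share also differed by library. Library 1, the batch 1 library, had the lowest share and, with 47.4% microglia among all cells, the most microglia.

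**Figure D1:**
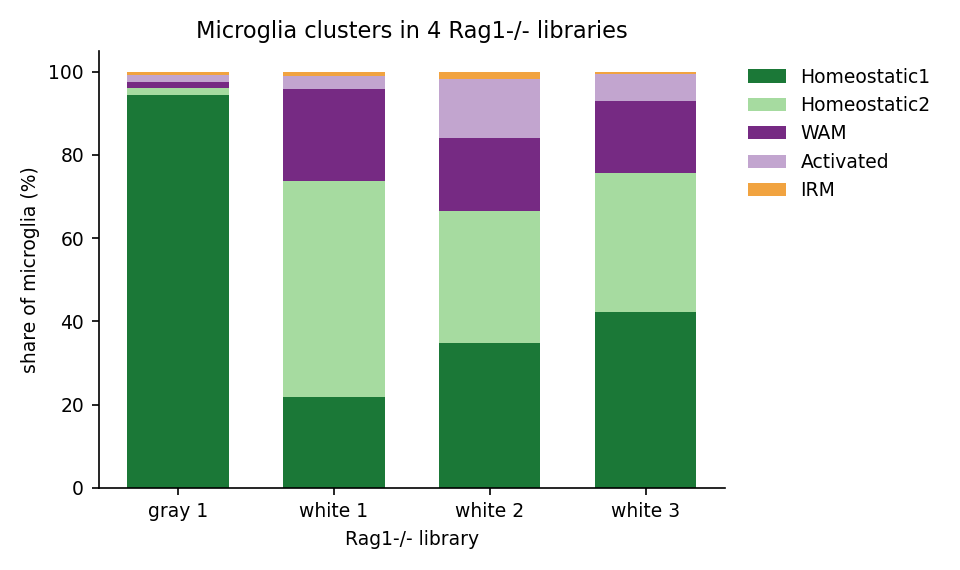
Share of each microglia cluster (percent of all microglia of the library, stacked bars from 0) in the gray matter library and the 3 white matter libraries of *Rag1*-/- mice. Homeostatic1 is at 94.3% in gray matter and between 21.7% and 42.1% in white matter.

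The sums of Homeostatic1 unique molecular identifiers (UMIs, each standing for 1 captured transcript) per library were between 1759292 and 9960013. A typical cell held 6006.5, 4865, 7333 and 5370 UMIs (medians; gray matter first). Median genes per cell were 2525, 2199, 2814.5 and 2314. Over all cell types, 47 barcode sequences occurred in more than 1 of the 4 libraries, but none was found in Homeostatic1 cells of more than 1 library. Levels below are CPM, the UMIs of a gene per 1e+06 of the UMIs summed over the Homeostatic1 cells of a library. Values in 4 libraries are given in the order gray matter, then white matter 1, 2 and 3.

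The 3 marker genes fitted the label in every library. *P2ry12*, the ADP receptor that directs microglial processes (chr3:59216271-59262985), had 3315, 3239, 3007 and 2938 CPM. *Tmem119*, a membrane protein restricted in the brain to microglia (chr5:113793729-113800396), had 1316, 1338, 1022 and 1147 CPM. *Cx3cr1*, the fractalkine receptor (chr9:120048683-120068296), had 3964, 3646, 5747 and 5201 CPM. Relative to its level, *P2ry12* ranged least between libraries, and *Cx3cr1* was higher in both libraries of batch 2 than in both of batch 1. Oligodendrocytes of the same libraries, as named by the authors, had 4.62 to 15.9 CPM of *P2ry12*, 2.20 to 6.82 of *Tmem119* and 7.55 to 24.5 of *Cx3cr1*.

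The markers were present in nearly every cell. At least 1 UMI of *P2ry12* was found in 98.4% or more of the Homeostatic1 cells of each library, and in 5.50% to 13.1% of oligodendrocytes, which had median depths of 8669 to 12534.5 UMIs. After each cell was thinned to 1000 UMIs, the shares were 94.8%, 94.1%, 89.3% and 91.2%, against 0.754% to 1.33% of oligodendrocytes. Thinning left out 3, 3, 4 and 18 Homeostatic1 cells that were shallower. The thinned share in Homeostatic2 was 88.5% of 26 gray matter cells and 70.6%, 65.9% and 69.7% in white matter. For *Tmem119* the thinned share was 69.7%, 72.5%, 59.4% and 64.6% in Homeostatic1 and 38.5%, 49.7%, 40.6% and 46.0% in Homeostatic2.

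The most abundant message was *Cst3*, an inhibitor of cysteine proteases, with 43747, 46657, 46386 and 52011 CPM. It was followed by the nuclear noncoding RNA *Malat1* (30529 to 32080 CPM) and by *Tmsb4x*, an actin-binding thymosin (12802 to 14493 CPM). The complement genes *C1qa*, *C1qb* and *C1qc* reached 8826 to 9512, 7637 to 8455 and 6299 to 6580 CPM. The 10 leading genes held 14.0% to 15.2% of all UMIs. *Gm42418* had 1879 and 1641 CPM in batch 1 and 10174 and 9674 in batch 2, and *Actb*, which encodes cytoplasmic actin, 9134 and 8370 in batch 1 and 6213 and 6656 in batch 2. The paper took *Gm42418* out of its oligodendrocyte data as a mark of ribosomal RNA contamination. Here it was kept in all sums and is among the 10 leading genes.

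Messages of other cell types were looked for next. Of the T cell list, *Cd3e*, *Cd3g*, *Trbc2*, *Cd4* and *Cd28* had no UMI in any of the 4 sums. *Il7r*, which is on that list, had 67.5, 62.9, 36.4 and 35.0 CPM. Of the B cell list, *Cd79a*, *Ms4a1* and *Igkc* were at 0, although *Ighm*, the immunoglobulin µ heavy chain gene, had 229, 223, 254 and 272 CPM. *Cd79b*, its signaling partner in B cells, had 27.9, 29.1, 30.1 and 28.6 CPM. The summed B cell list was at most 2.996 CPM in oligodendrocytes and 264 to 314 in Homeostatic1. The border macrophage list summed to 260, 215, 221 and 198 CPM, of which *Stab1* gave 190, 156, 140 and 144. *Mrc1*, a defining marker of these cells, was at 8.33 CPM in gray and at most 3.57 in white matter. The proliferation gene *Mki67* was found in 0.00% to 0.255% of cells, against 1.44% to 2.26% of the deeper oligodendrocytes. Thinned to 1000 UMIs, the shares were at most 0.256% and 0.266%, and no proliferation is read from them.

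Myelin and hemoglobin messages moved with the library. The summed oligodendrocyte list was 4570 and 4858 CPM in batch 1 and 6194 and 8022 in batch 2. In oligodendrocytes of these libraries the list summed to 106818 to 121547 CPM. The blood list was at 747, 93.5, 84.1 and 27.6 CPM, highest in the gray matter library. The astrocyte list summed to 361, 225, 305 and 390 CPM, of which *Slc1a3* gave 260, 207, 181 and 176. Neuronal, endothelial, choroid plexus and monocyte and neutrophil lists summed to at most 36.4, 528, 106 and 34.6 CPM, and the natural killer cell list to 13.6 to 21.99 CPM. Most of the endothelial sum was *Bsg* (410 to 485 CPM).

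Homeostatic1 differed from Homeostatic2 of the same library by small shifts in many homeostatic genes and by large ones in few genes. These are descriptions without a test, because the clusters were built from expression in these same cells. Of 17166 genes with a count in either cluster, 31 (0.181%) were at least 2-fold higher and 59 (0.344%) at least 2-fold lower in Homeostatic1 in all 4 libraries, on the log2(CPM + 1) scale. With cells thinned to 1000 UMIs the balance turned, to 72 higher and 34 lower. Of the 3610 genes with a mean of at least 50 CPM in either cluster, the numbers were 3 (0.0831%) and 16 (0.443%). The gray matter Homeostatic2 sum rests on 29 cells and 123583 UMIs, so that 1 UMI is 8.09 CPM there. With the 3 white matter libraries alone, 21 of these genes were higher and 21 lower.

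The homeostatic signature was higher in Homeostatic1. All 35 genes of the list reached 50 CPM, and 32 were higher in Homeostatic1 than in Homeostatic2 in every library, where 44.0% of all genes at this level were. One, *Ctss*, was lower in every library (background 10.9%). None of the 35 passed 2-fold in all libraries. The median over the list was 0.52 on the log2 scale, beside 0.19 over all 3610 genes. Summed over the list, Homeostatic1 had 99594 to 106048 CPM, Homeostatic2 82914 to 86760, and white matter WAM 55382 to 58062. Neither range overlapped that of Homeostatic1.

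*P2ry12* had 1902, 1414, 1439 and 1401 CPM in Homeostatic2, a log2 difference of 1.03 ± 0.17 (SD, n = 4 libraries) in favor of Homeostatic1. For *Tmem119* the log2 difference was 0.70 ± 0.11 and for *Cx3cr1* 0.47 ± 0.10 (SD, n = 4). In white matter WAM, *P2ry12* was at 509 to 558 CPM and *Tmem119* at 252 to 305. The 27 gray matter cells of the WAM cluster kept 1800 and 897 CPM, closer to gray matter Homeostatic2 than to white matter WAM.

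**Figure D2:**
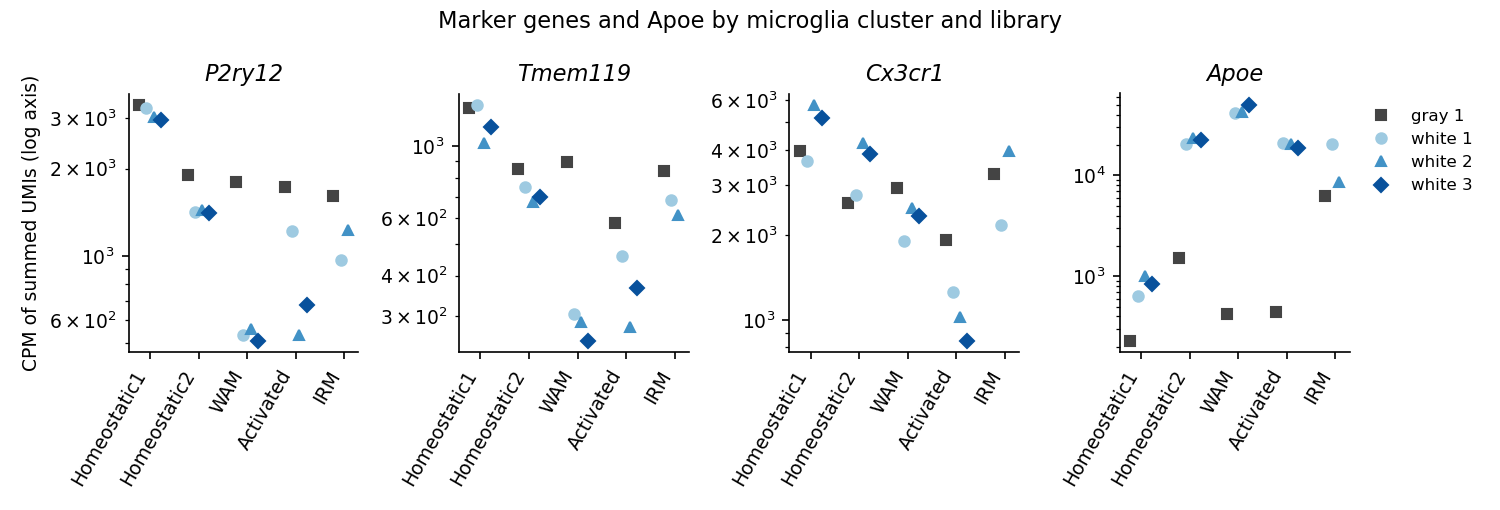
CPM of summed UMIs (log axis) of *P2ry12*, *Tmem119*, *Cx3cr1* and *Apoe* in each microglia cluster, 1 point per library, for clusters of at least 10 cells. *P2ry12* and *Tmem119* are highest in Homeostatic1 in each library. *Apoe* is lowest there, at 230 CPM in gray and 642 to 996 CPM in white matter.

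Genes of at least 50 CPM that differed the same way in every library were ranked by the smallest of their 4 library log2 differences. The 12 ranked highest in Homeostatic1 were *Pde2a*, *Upk1b*, *Khdrbs3*, *Mgll*, *Cib1*, *Slc2a5*, *Fcrls*, *Crybb1*, *P2ry12*, *Npl*, *Pmepa1* and *Ggta1*. *Upk1b*, a uroplakin, had 188, 177, 132 and 168 CPM against 48.6, 32.3, 40.7 and 33.1 in Homeostatic2. *Pde2a*, a cyclic nucleotide phosphodiesterase, had 57.8, 54.1, 56.8 and 54.5 CPM against 16.2, 12.1, 16.2 and 13.4. *Khdrbs3*, an RNA-binding protein gene, had 78.5 to 132 CPM against 28.7 to 56.6. These are the 3 genes past 2-fold in every library. In gray matter Homeostatic2 *Upk1b*, *Pde2a* and *Khdrbs3* rest on only 6, 2 and 7 UMIs, and *Cib1*, *Npl* and *Ggta1* on 2, 3 and 4. *Slc2a5*, a fructose transporter, was at 341 to 357 CPM against 131 to 178. *Crybb1*, a crystallin gene that microglia express, had 539, 406, 381 and 404 CPM against 299, 113, 118 and 105, so that its difference was smallest in gray matter. *Pmepa1*, a target of TGF-β signaling, had 1354, 1132, 918 and 1158 CPM against 736, 627, 535 and 620, with a log2 difference of 0.85 ± 0.05 (SD, n = 4), the narrowest spread of the 12.

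Nucleotide sensing, TGF-β signaling and transcription factor lists are to be read against all genes at 50 CPM, of which 44.0% were higher and 10.9% lower in Homeostatic1 in every library, with a median of 0.19. Of 8 purinergic genes at 50 CPM, *P2ry12*, *P2ry13*, *P2ry6*, *Entpd1* and *Kcnk13* were higher in Homeostatic1 in every library and *P2rx4* was lower, with a median log2 difference of 0.31. *P2ry13*, a second ADP receptor, had 605, 635, 560 and 629 CPM against 283, 335, 345 and 362. *Entpd1*, the ectoenzyme that degrades ATP and ADP, had 591, 549, 353 and 379 CPM against 461, 322, 247 and 226. The summed list was 4531 to 5120 CPM in Homeostatic1, 2543 to 3196 in Homeostatic2 and 1299 to 1449 in white matter WAM. Of 11 TGF-β genes, 7 were higher in every library and none lower (median 0.28). They included the ligand *Tgfb1* (251 to 291 CPM against 172 to 243), the receptor *Tgfbr1* (911 to 1278 against 644 to 1076) and *Nrros*, which anchors latent TGF-β on microglia (94.8 to 111 against 58.7 to 67.0). Of 15 transcription factors, 8 were higher in every library and *Bhlhe41* was lower (median 0.18). *Sall1*, a factor that maintains microglial identity, had 415, 401, 367 and 363 CPM against 251, 216, 248 and 217. *Maf* had 1325, 1193, 1296 and 1182 CPM against 914, 592, 597 and 515. *Spi1*, which encodes PU.1, had 510, 508, 423 and 465 CPM against 356, 426, 346 and 373, and *Irf8* did not separate the clusters (508 to 584 against 490 to 570).

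**Figure D3:**
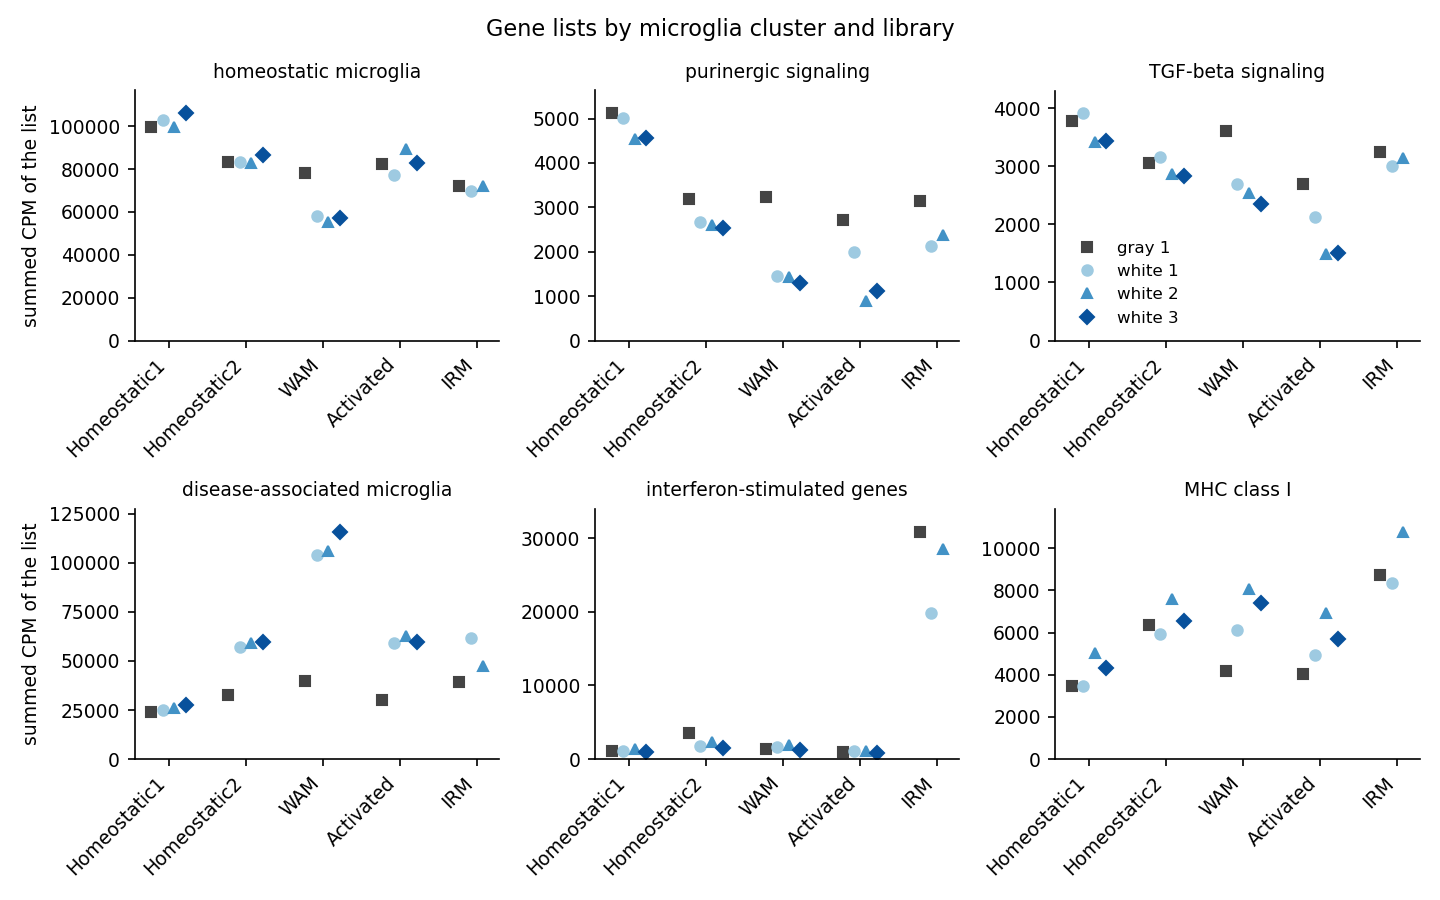
Summed CPM of 6 gene lists in each microglia cluster, 1 point per library, axes from 0. The homeostatic, purinergic and TGF-β lists are highest in Homeostatic1 in every library. The disease-associated list is at 23752 to 27568 CPM in Homeostatic1, below every other cluster of the same library, and the IFN list reaches 19790 to 30874 CPM in IRM alone.

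Genes of disease-associated microglia were lower in Homeostatic1. Of 24 at 50 CPM, 22 were lower than in Homeostatic2 in every library (background 10.9%), none was higher in every library, and 6 were past 2-fold in all 4 (background 0.443%). The median log2 difference was -0.57. *Apoe*, the main lipoprotein component of the brain, stood apart. It had 230, 642, 996 and 841 CPM in Homeostatic1 and 1513, 20375, 23694 and 22222 in Homeostatic2. *Lpl*, which hydrolyzes lipoprotein triglycerides, had 2.91, 14.7, 20.5 and 14.9 CPM against 32.4, 164, 154 and 185. *Cst7*, a cystatin, had 17.9, 14.9, 18.8 and 16.6 CPM against 178, 124, 96.3 and 124. *Axl*, a phagocytic receptor, had 3.31, 11.6, 14.8 and 11.4 CPM against 40.5, 98.6, 118 and 89.2. *Lyz2*, which encodes lysozyme, had 366, 428, 447 and 492 CPM against 1028, 1720, 1668 and 1712. For all 5 genes, no Homeostatic1 library reached the lowest Homeostatic2 library. For *Lpl* and *Axl* that lowest library was the gray one, where the values rest on 4 and 5 UMIs, each in 2 of 29 cells. *Trem2* differed little (2296 to 2572 CPM against 2553 to 2759).

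The shares of single cells with an *Apoe* UMI parted the clusters in white but little in gray matter. Thinned to 1000 UMIs, 16.4% of gray matter and 35.3%, 36.5% and 44.0% of white matter Homeostatic1 cells had an *Apoe* UMI. In Homeostatic2 the shares were 23.1% of 26 gray matter cells and 88.7%, 88.9% and 92.7% in white matter. Unthinned shares in Homeostatic1 were 54.7%, 77.2%, 78.2% and 85.3%, against 58.6% (17 of 29 cells), 97.1%, 95.1% and 96.9% in Homeostatic2. Oligodendrocytes, in which 77.8% to 88.0% of thinned cells had an *Apoe* UMI, are no negative control for this gene. Their level, 2259, 2007, 3008 and 2750 CPM, was above that of Homeostatic1 in each library.

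IFN-stimulated and class I antigen presentation genes were mostly lower as well. Of 14 IFN-stimulated genes at 50 CPM, 10 were lower in Homeostatic1 than in Homeostatic2 in every library (background 10.9%) and 3 were past 2-fold (background 0.443%), with a median log2 difference of -0.75. *Ifitm3*, a membrane protein that restricts viruses, had 24.5, 21.7, 42.6 and 21.4 CPM against 227, 112, 186 and 99.2. *Ifi27l2a* had 33.0, 41.5, 62.0 and 31.5 CPM against 494, 236, 324 and 122. *Ifi204*, a DNA sensor, had 4.22 to 14.4 CPM against 53.5 to 121. The list summed to 995 to 1356 CPM in Homeostatic1 and to 1493 to 3512 in Homeostatic2. Of 13 class I genes, 9 were lower in every library (background 10.9%) and 1, *Tap2*, was higher (background 44.0%), with a median of -0.35. *H2-D1* had 482, 514, 712 and 559 CPM against 1262, 1249, 1414 and 1191. *B2m*, the light chain of class I molecules, had 1245, 1248, 2215 and 1904 CPM against 2015, 2279, 3552 and 3060, with both clusters higher in batch 2 than in batch 1.

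Further genes were lower outside these lists. *Cxcl13*, a chemokine that attracts B cells, gave only 3, 4, 0 and 2 UMIs in the Homeostatic1 sums, against 80.9, 71.5, 23.9 and 150 CPM in Homeostatic2. *Fxyd5*, a regulator of the sodium pump, had 4.22, 19.5, 21.6 and 19.1 CPM against 32.4, 126, 89.8 and 117. *Crip1* had 8.53 to 16.6 CPM against 56.6 to 75.0, and *Arhgap15*, a gene for a GTPase-activating protein, 5.68 to 22.7 against 44.9 to 116.

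**Figure D4:**
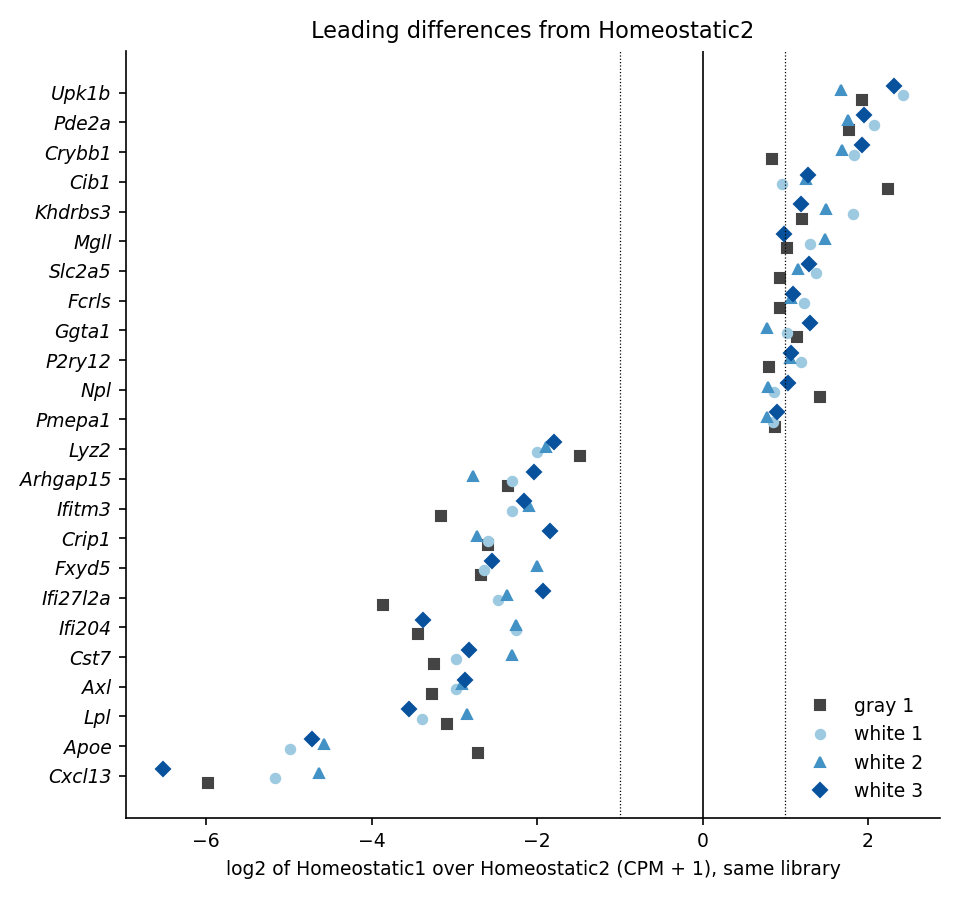
Log2 ratio of CPM + 1 in Homeostatic1 over Homeostatic2 of the same library, 1 point per library. Shown are the 12 genes ranked highest and the 12 ranked lowest by their smallest library difference. Dotted lines mark 2-fold. Only *Upk1b*, *Pde2a* and *Khdrbs3* lie beyond 2-fold on the higher side in all 4 libraries, and all 12 lower genes do on the lower side. The 0 UMI value of *Cxcl13* in white matter library 2 enters through the added 1 CPM.

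Of 36 lysosomal genes at 50 CPM, 10 were higher (background 44.0%) and 16 lower (background 10.9%) in Homeostatic1 in every library (median -0.10), with the proteases *Ctsb*, *Ctsd* and *Ctss* among the lower ones. In every library, 1 was higher and 4 lower of 8 complement genes (median -0.08), 0 and 3 of 4 class II genes (-0.25) and 2 and 5 of 9 genes of lipid metabolism (-0.11, of which 2 were lower past 2-fold). The numbers were 7 and 4 of 17 phagocytosis genes (0.11), 2 and 4 of 12 nuclear factor-κB genes and cytokines (-0.11) and 3 and 2 of 7 heat shock genes (-0.08). The medians were 0.05 for 5 glucocorticoid-type response genes, 0.40 for 7 immediate early genes (4 higher and 0 lower in every library) and 0.26 for 2 cell cycle genes. *C1qa*, *C1qb* and *C1qc* were each slightly lower in Homeostatic1 in every library. *Fos*, an immediate early gene that dissociation can raise, was at 0 to 1.95 CPM in Homeostatic1 and at 0 to 0.598 in Homeostatic2. The ribosomal share of UMIs, by contrast, was lower in Homeostatic1 (medians 8.06%, 8.42%, 10.1% and 10.1%) than in Homeostatic2 (12%, 12.4%, 14.9% and 13.5%), while mitochondrial shares were 2.18% to 2.56% and 2.21% to 2.99%.

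By the same counts, the remaining clusters lay further away. Against WAM, 159 of all 16962 genes with a count (0.937%) were at least 2-fold higher and 144 (0.849%) at least 2-fold lower in Homeostatic1 in every library. At 50 CPM or more, 39 of 3707 genes (1.05%) were higher and 66 (1.78%) lower. With the 3 white matter libraries alone, the numbers were 257 and 103. Against Activated cells they were 1177 (7.12%) and 97 (0.587%) of 16525 genes, and 320 (8.90%) and 92 (2.56%) of 3596 genes at 50 CPM, or 819 and 120 in white matter alone. Activated cells in white matter libraries 2 and 3 held a median of 2287 and 3007 UMIs and all 4 libraries had 20.9% to 27.5% ribosomal UMIs there, and the part of these measures in that comparison was not tested. Against IRM, with 3 libraries of at least 10 cells, they were 938 (5.82%) and 236 (1.46%) of 16117 genes, and 35 (0.884%) and 171 (4.32%) of 3960 at 50 CPM. These IRM sums hold 15, 37 and 13 cells and 92634 to 275036 UMIs. The part of their depth and of the smaller number of libraries was not tested.

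The comparison of white with gray matter asks whether cells of the same cluster differ by tissue. In Homeostatic1 microglia it called 5 of 11173 genes tested (0.0448%), 1 higher (0.00895%) and 4 lower (0.0358%) in white matter (edgeR quasi-likelihood test, adjusted p under 0.05). Without adjustment 275 genes had a p under 0.05. With a single gray matter library, the spread comes from white matter alone and was taken to hold for both tissues. That spread includes the batch difference, since the white matter libraries span both batches. The gray matter library and white matter library 1, which share their mice in the study's mouse list, were not paired. A small number of calls therefore does not show that the tissues are alike. No gene of the homeostatic list was called, and its median log2 difference was -0.02. Membership was set by expression in these same cells and is taken as given here. Tissue differences that put cells into another cluster are therefore not seen. *P2ry12* differed by -0.07 ± 0.13 (log2, SE), *Tmem119* by -0.13 ± 0.16 and *Cx3cr1* by 0.34 ± 0.22, all with an adjusted p of 1.00 (edgeR).

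The 4 lower genes encode the α- and β-globins of hemoglobin, the oxygen carrier of red blood cells. *Hbb-bs* had 433 CPM in gray and 58.9, 50.6 and 14.9 CPM in white matter Homeostatic1 (log2 difference -3.35 ± 0.40 SE, adjusted p = 0.026). *Hba-a1* had 136 CPM and 12.9, 15.9 and 2.92 CPM (-3.71 ± 0.38, adjusted p = 0.0073). Both calls end under DESeq2 (adjusted p = 0.952 and 1.00), with log2 differences of -3.34 and -3.65. *Hba-a2* and *Hbb-bt* differed by -3.25 ± 0.26 and -3.52 ± 0.34 (adjusted p = 0.0023 and 0.0066). These genes moved alike in oligodendrocytes, where *Hbb-bs* had 356, 50.4, 26.3 and 33.9 CPM. In the cells without a microglia cluster *Hbb-bs* had 23740, 3798, 5496 and 1066 CPM, again with gray matter highest.

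*Apoe* was the only gene called higher in white matter by edgeR with the settings used here. The split of 1 higher and 4 lower became 4 and 2 with DESeq2, 9 and 5 with thinned cells and 24 and 8 without a filter on low counts. It had 230 CPM in the gray matter library and 642, 996 and 841 in the white matter libraries, a log2 difference of 1.89 ± 0.25 (SE, adjusted p = 0.042). All 3 white matter libraries lay above the gray one. In oligodendrocytes the gray library, at 2259 CPM, lay within the white matter range of 2007 to 3008. With the batch number as a term in the model the difference was 1.51. It then compares 1 gray with 1 white matter library, and the spread comes only from the 2 libraries of batch 2, so that no p is given.

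*Fxyd5*, *Ttr* and *Lpl* came next without passing the threshold. *Fxyd5* differed by 2.28 ± 0.31 (adjusted p = 0.052), *Ttr*, the thyroxine carrier made by the choroid plexus, by 1.78 ± 0.25 (0.055), and *Lpl* by 2.53 ± 0.39 (0.099). *Ttr* had 11.5, 45.8, 31.8 and 36.0 CPM in Homeostatic1 and 7.85, 32.4, 18.0 and 22.6 in oligodendrocytes of the same libraries. For *Fxyd5* oligodendrocytes had 0.826 CPM in gray and 1.504, 0.420 and 0.820 in white matter. All cells without a microglia cluster together had 75.2 CPM in gray and 36.2, 29.6 and 19.9 in white matter. For *Lpl* oligodendrocytes had 0.207 CPM in gray and 0.577 to 2.08 in white matter. All cells without a microglia cluster had 0.786 CPM in gray and 22.5, 2.46 and 7.30 in white matter. The white matter libraries thus lay above the gray one in both. In the cells without a microglia cluster the homeostatic list summed to 4371 to 9683 CPM, against 3020 to 3431 in oligodendrocytes. Whether microglia are among them was not tested. *Fxyd5* rests on 42, 77, 38 and 59 UMIs and *Lpl* on 29, 58, 36 and 46. All 3 passed in DESeq2 (adjusted p = 0.0028, 0.0025 and 0.0041) and with any 1 white matter library left out. With cells thinned to 1000 UMIs, *Ttr* passed (0.046, edgeR), and *Fxyd5* and *Lpl* did not (0.61 and 1.00). With the batch term, under the limit just given, 24 genes were called, *Apoe*, *Fxyd5*, *Ttr* and *Lpl* among 8 higher and the 4 globins among 16 lower.

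**Figure D5:**
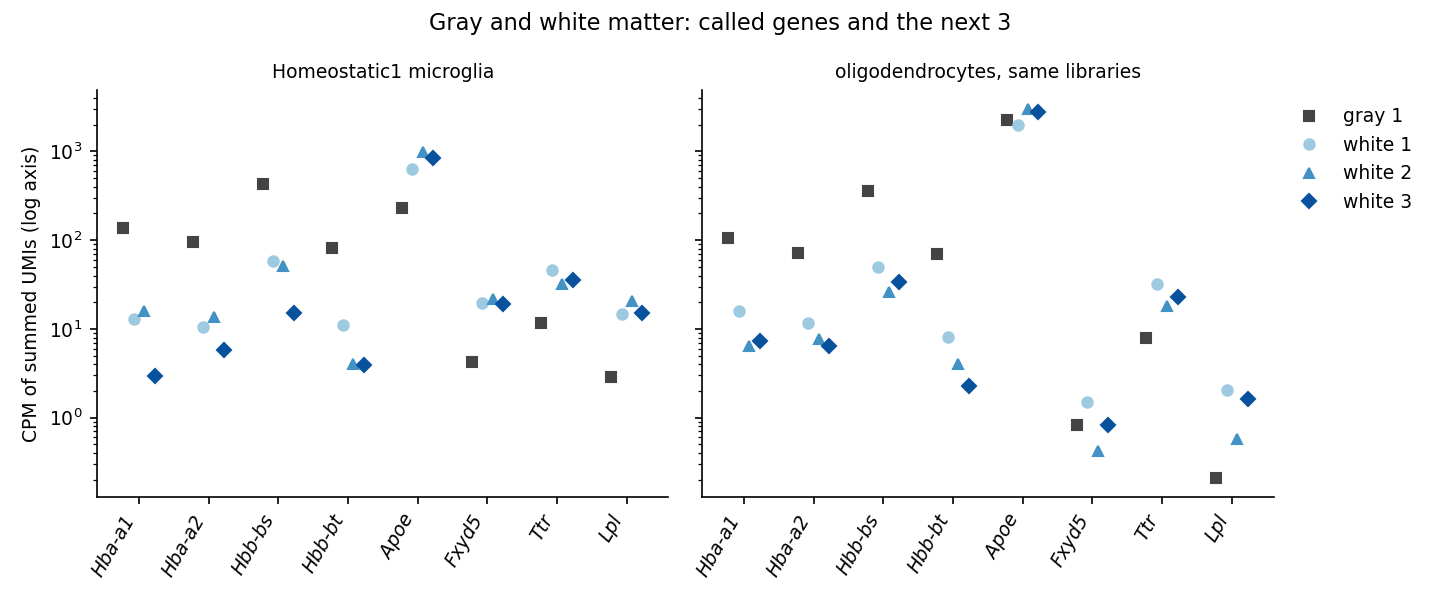
CPM of summed UMIs (log axis) of the 5 called genes and the next 3, in Homeostatic1 microglia (left) and in oligodendrocytes (right) of the same 4 libraries. The globin genes are highest in gray matter in both cell types. *Apoe* in Homeostatic1 is at 230 CPM in gray and 642 to 996 in white matter, whereas in oligodendrocytes the gray point lies among the white ones.

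The lists differed in how far their medians moved between tissues. The largest were those of other cell types, with -3.43 for the blood list (4 of 4 tested called), 1.85 for 2 choroid plexus genes, 1.20 for the oligodendrocyte list and -1.17 for 3 monocyte and neutrophil genes. Of 29 disease-associated genes tested, 18 had all 3 white matter libraries above the gray one (16.2% of all genes tested did) and 2 had all below (27.7%). *Apoe* was the only one called, and the list median was 0.28 beside 0.01 over all genes. For IFN-stimulated genes 1 and 5 of 30 were above and below, with a median of 0.08 and none called. For class I genes it was 3 and 0 of 18 (median 0.13, none called), and for purinergic genes 0 and 4 of 8 (median -0.06, none called). The oligodendrocyte list had 13 of 18 above, and its sum was highest in batch 2. The batch of white matter libraries 2 and 3 and their tissue cannot be told apart against a gray matter library of batch 1. When white matter library 1 was left out, 434 genes were called in place of 5.

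The difference between tissues was set beside that in Homeostatic2 by an interaction on the 8 sums of both clusters, with the library as a block (edgeR). The clusters were built from expression in these same cells, so the calls take cluster membership as given and are listed as a description. Of 11434 genes, 41 (0.359%) were called, 9 (0.0787%) with a more positive white minus gray difference in Homeostatic1 and 32 (0.280%) with a more negative one. Without the library as a block no gene was called (edgeR, 646 at an unadjusted p under 0.05). The median over all genes tested was -0.23 on the log2 scale and -0.17 over the 3609 tested genes of at least 50 CPM, so that directions are relative to a shift. *Apoe* differed by -2.26 ± 0.08 (log2, SE). In gray matter Homeostatic2 it rests on 187 UMIs in 17 of 29 cells. The SEs of this fit measure neither the spread between cells nor that between gray matter libraries, so they understate the uncertainty. From gray to white matter *Apoe* rose from 230 to 642 or more CPM in Homeostatic1. In Homeostatic2 it rose from 1513 to 20375 or more. *Cx3cr1* differed by -0.39 ± 0.07 (SE), with 2597 CPM in gray and 2770 to 4209 in white matter Homeostatic2.

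Called were 8 of 91 ribosomal protein genes tested, all with negative values, and 3 of 13 mitochondrial genes, all with positive ones (background 0.359%), and the part of RNA quality was not tested. Of the 41 called genes, 29 had a mean of at least 500 CPM in Homeostatic1, whereas the background covers genes of all levels. Negative values were found in 32 of the 41. Of the disease-associated list 6 of 32 were called (*Apoe*, *Cd9*, *Ctsd*, *Ctsz*, *Fth1* and *Lyz2*, all negative), and of the homeostatic list 3 of 35 (*Cx3cr1*, *Selplg* and *Ctss*, all negative). The 3 of 11 called from the complement list, *C1qa*, *C1qb* and *C1qc*, had values close to that shift (-0.34, -0.31 and -0.25). Further from it were the lysosomal genes *Ctss* (-0.46), *Ctsd* (-0.44) and *Ctsz* (-0.55). *Ctss* had 6511, 7198, 6226 and 6174 CPM in Homeostatic1 and 7898, 10472, 8922 and 8978 in Homeostatic2. The IFN-stimulated gene *Ifi27l2a* (1.36 ± 0.25) went the other way. It had 494 CPM in gray and 122 to 324 in white matter Homeostatic2, but 31.5 to 62.0 in Homeostatic1 of all libraries. Its value rests on the 29 gray matter Homeostatic2 cells, with 61 UMIs, and in Homeostatic1 the gene did not pass the test between tissues.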

How the data were processed

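Cells were sequenced on the 10× platform with 3′ chemistry. The authors deposited raw UMI counts for each gene in each cell, made with Cell Ranger (version 4 in the submitters' processing notes, with mm10) and filtered by genes, UMIs and mitochondrial share. The cells used held at most 19946 UMIs in batch 1 and 19979 in batch 2. No doublet caller was run here. Libraries and cluster names were taken from the authors' cell annotation, in which 8171 cells of another series were not used. Counts came from the table of all cell types, which held all 3244 Homeostatic1 cells. The labels state that 2 tissue samples were combined per library. In the study's mouse list the gray matter library and white matter library 1 share their mice, and the other 2 white matter libraries have 1 mouse each. Its methods name the strain B6.129S7-Rag1tm1Mom/J, unlike the labels. P-values measure the spread between these libraries.

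Counts were summed per library and cluster. The 17443 genes with a count in both batches entered the fits, since 1443 had none in 1 batch. This limit was set once the tables had been seen. Fits used edgeR 4.0.16 under R 4.3.3 (filterByExpr, TMM factors, quasi-likelihood tests, two-sided), and p-values were adjusted by Benjamini-Hochberg with a threshold of 0.05. The SE is the log2 difference divided by the square root of F. Levels in CPM and shares were computed with Python, and intervals are at 95%. DESeq2 1.42.0 served as an alternative. The scripts were tested on simulated data. The members and the gene lists were chosen with earlier results of these data known, and gene positions and windows are those of RefSeq for GRCm38.p6.

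Genes were named by a rule written with the design. It covers the 3 markers, the called genes between tissues whose white matter libraries all lie on one side and the 10 called genes with the largest interaction. Against Homeostatic2 it covers the 12 highest and the 12 lowest genes at 50 CPM or more, ranked by their smallest library difference. The 3 most abundant genes of a list are also covered. Other list members, *Malat1*, *Tmsb4x*, *Gm42418*, *Actb*, *Fos* and the genes next to the threshold were picked with their values known. Some genes that the rule would name are not reported here.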

Additional observations from a re-analysis of the deposited data

Results flagged for a closer look

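An interaction of cluster and tissue in edgeR, with the library as a block, called 41 genes between Homeostatic1 and Homeostatic2. The clusters were built from expression in these same cells, and the calls take their membership as given. Without the block edgeR called 0 genes, with 646 at an unadjusted p under 0.05. Of the called genes with the largest values, 9 are given as log2 differences, positive where white minus gray was larger in Homeostatic1. They were 5.12 for *Pf4*, -3.64 for *Dync1h1*, 2.71 for *Ccl4*, -2.26 for *Apoe*, -2.14 for *Zranb2*, 2.05 for *Prkca*, 1.54 for *Gpr160*, 1.36 for *Ifi27l2a* and -1.36 for *Ifngr2*. In the gray matter Homeostatic2 sum these genes had 6, 1, 8, 187, 4, 18, 22, 61 and 13 UMIs, in the same order. *Ccl4* lost its call with DESeq2 size factors and without white matter library 2 or 3. *Zranb2* and *Ifngr2* lost theirs with DESeq2 size factors and without library 3, and *Pf4* without library 2. *Pf4*, a platelet factor and border macrophage marker, had 48.6 CPM there and 0 to 9.09 CPM in the 4 Homeostatic1 sums. *Mrc1*, another border macrophage marker, had 32.4 CPM in that sum and 0 to 1.49 in white matter Homeostatic2. The part of such cells among the 29 was not tested. With 1 gray and 3 white matter libraries, no group was large enough to test for single outlying libraries. In the comparison of tissues the count of called genes moved most without white matter library 1, the only white matter library of batch 1.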

How the results depend on the processing

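Between tissues, 5 genes were called with either TMM or DESeq2 size factors and 6 by DESeq2. The count was 32 without a filter, 14 with cells thinned to 1000 UMIs, and 24 with the replicate block (the batch number as a term), which pairs the gray matter library with white matter library 1. It ranged from 11 to 434 when 1 white matter library was left out (434 without library 1, 11 without 2, 20 without 3). All settings use the same single gray matter library, so they do not test its values. Under every setting *Apoe*, *Hba-a2* and *Hbb-bt* were called. *Hba-a1* and *Hbb-bs* were not by DESeq2 alone (adjusted p = 1.00 and 0.952). The cause was not tested. For the interaction, 29 to 47 genes were called under the other settings (19 of 29 negative with DESeq2 size factors, in place of 32 of 41), but 0 without the library as a block (no replicate block, added after seeing the data, with 646 at an unadjusted p under 0.05).

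The counts of 31 genes higher and 59 lower than in Homeostatic2 by 2-fold in every library became 72 and 34 with thinned cells, 5 and 24 with a pseudocount of 10 CPM, and 3 and 16 for genes of at least 50 CPM. Without 1 library they ranged from 52 to 82 and from 69 to 123, highest without the gray matter library. The 24 genes ranked highest or lowest by their smallest library difference were recomputed with thinned cells, the other pseudocount and means per cell. Their mean log2 difference over libraries kept its sign. The other named genes were not recomputed under these settings. Sizes moved with thinned cells for *Axl* (-3.01 to -1.40), *Cxcl13* (-5.58 to -3.68), *Npl* (1.03 to 2.05) and *Cib1* (1.43 to 2.21). They also moved for *Lpl* (-3.22 to -3.88) and *Cst7* (-2.84 to -2.42). With a pseudocount of 10 CPM they moved for *Cxcl13* (-5.58 to -2.93), *Axl* (-3.01 to -2.21) and *Pde2a* (1.89 to 1.43). *Lpl*, *Cst7*, *Ifi204*, *Arhgap15*, *Fxyd5* and *Crip1* moved with that pseudocount as well. Means per cell moved *Pde2a* (1.89 to 1.37) and *Pmepa1* (0.85 to 0.78). In gray matter alone *Axl* turned, with 6 of 1631 thinned Homeostatic1 cells and 0 of 26 Homeostatic2 cells holding a UMI. Of all cells, Homeostatic1 made up 42.9%, 10.3%, 8.42% and 8.85%, and of both homeostatic clusters 98.3%, 29.4%, 52.3% and 55.7%. Counts of the microglia table were not run as an alternative, since the table of all cell types was already used. The 29 gray matter Homeostatic2 cells limit what that library can show.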
